A study of Homo sapiens with 4 samples.

Results

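Band 20q13.13 is the stretch of the long arm of human chromosome 20 between 46.4 and 49.8 Mb of the hg19 build, and it carries CEBPB, the gene of the transcription factor whose binding was mapped here. All peaks with a summit between these limits were taken: 242 of 75169 peak intervals in replicate 1, 269 of 97829 in replicate 2, and 94 of the 25602 regions that the authors' table of the irreproducible discovery rate (IDR, a measure of how well the ranks of a peak match between replicates) lists as reproducible. The comparison was the rest of 20q, from 29.4 Mb to the end of the chromosome, with 1086 and 1374 intervals and 350 reproducible regions. The band was singled out because it is dense in these regions, so its density and the values of its peaks are given as a description and were not tested. The fold of a peak is the ChIP signal over the background at its summit, as the authors' peak caller gave it. The first reproducible region inside lay 19.1 kb from the proximal limit with a mean fold of 8.83, and the last one outside lay 30.3 kb before it with 10.1. At the distal limit the last region inside lay 16.8 kb away with a mean fold of 13.2, and the first outside lay 38.7 kb beyond with 15.1. A peak that is not among the reproducible regions lay 0.17 kb beyond this limit in each replicate, with folds of 6.62 and 7.41.

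The material was NCM460, an established human colon epithelial cell line grown without any treatment, as far as the labels state. In 2 samples, described as independent experiments, chromatin was pulled down by means of a CEBPB antibody, and 2 input samples (sonicated chromatin without the antibody step) were the controls. The inputs enter only through the background that the peak caller used. The total read number of the libraries is not held in the peak lists. The counts called fragments below are extended ChIP reads over a summit, recovered from the deposited fold and p-value, and the background is the input signal expected at the same place. All fragment counts are before scaling, so they can be compared between regions of a replicate. The background, given in expected fragments, is in the units after scaling, by 0.927 in replicate 1 and 0.800 in replicate 2. Fragments divided by background therefore do not give the fold.

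CEBPB is a basic leucine zipper factor of the C/EBP family. It binds DNA as a dimer, alone or with related factors, at a palindrome whose core reads TTGCGCAA, and it takes part in inflammatory, acute phase and differentiation programmes in many epithelia. Its gene has no introns, and the band carries other genes as well. Among them are SNAI1, a zinc finger repressor of epithelial genes, PTPN1, a tyrosine phosphatase that acts on the insulin and cytokine pathways, and PTGIS, the enzyme that makes prostacyclin. STAU1 encodes a binder of double-stranded RNA, ARFGEF2 an exchange factor of vesicle transport, PREX1 an exchange factor for Rac, and ADNP a homeobox protein. In RefSeq's order on GRCh38.p14, 27 protein-coding genes run from SULF2 to KCNG1. CEBPB is followed by PTPN1 and has the antisense transcript CEBPB-AS1 beside it. That table is of another build than the peaks, so no peak is placed on a gene here, and the sequences of the peaks themselves are not shown.

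To show what the C/EBP core looks like in this band, the 250 bases before each gene start in RefSeq were searched on both strands. The windows of 18 of the 25 genes listed for the band were at hand. Those of 2 genes, STAU1 and DDX27, held a match to TTGCNNAA (11.1%, against 9.05% of all 35116 promoter windows of that length), and none held the composite TGATGCAA (0.772% of all windows). The matches of STAU1 and DDX27 are one and the same site, which lies between their divergent starts and is the full palindrome. The window of CEBPB held neither. No match says only that these letters are not in this window. In the sequences, in lower case with the core in capitals and credited to RefSeq on GRCh38.p14, positions must not be set against the hg19 positions of the peaks.
Between STAU1 and DDX27, chr20:49219296-49219415, plus strand: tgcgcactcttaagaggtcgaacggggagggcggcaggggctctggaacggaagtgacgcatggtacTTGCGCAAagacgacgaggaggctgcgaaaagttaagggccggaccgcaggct
Before the start of CEBPB, chr20:50190333-50190582, plus strand: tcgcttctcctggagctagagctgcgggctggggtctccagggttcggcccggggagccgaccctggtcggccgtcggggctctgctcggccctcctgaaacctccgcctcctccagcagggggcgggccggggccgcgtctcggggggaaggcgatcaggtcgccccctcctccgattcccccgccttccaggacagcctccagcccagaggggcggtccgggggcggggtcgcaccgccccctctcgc
The CEBPB window had a G and C content of 75.6%, against a median of 58.0% over all promoter windows. RefSeq's windows say nothing of binding in these cells.

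The 94 reproducible regions of 20q13.13 gave 27.6 regions per Mb (95% exact Poisson interval 22.3 to 33.8), and the rest of 20q held 11.6 per Mb (10.4 to 12.9). Together the regions covered 45.7 kb, or 1.35% of the band, against 0.589% of the rest of the arm. Among the bands of 20q, the next densest was 20q13.31 with 22.7 per Mb, and its interval of 15.7 to 31.7 overlapped that of 20q13.13. The bands on either side were lower, with 17 per Mb in 20q13.12 (13.3 to 21.3) and 14 in 20q13.2 (11 to 17.7). Bands 20q12, 20q13.32 and 20q13.33 held 3.90, 4.21 and 6.27 per Mb. Peaks of single replicates ranked the band less far up: among 674 bands of at least 2 Mb it was the densest by reproducible regions, rank 4 by all peaks of replicate 1 (71.2 per Mb) and rank 6 by those of replicate 2 (79.1 per Mb). Intervals here and below cover counting error only, and neighbouring peaks are not independent.

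**Figure D1:**
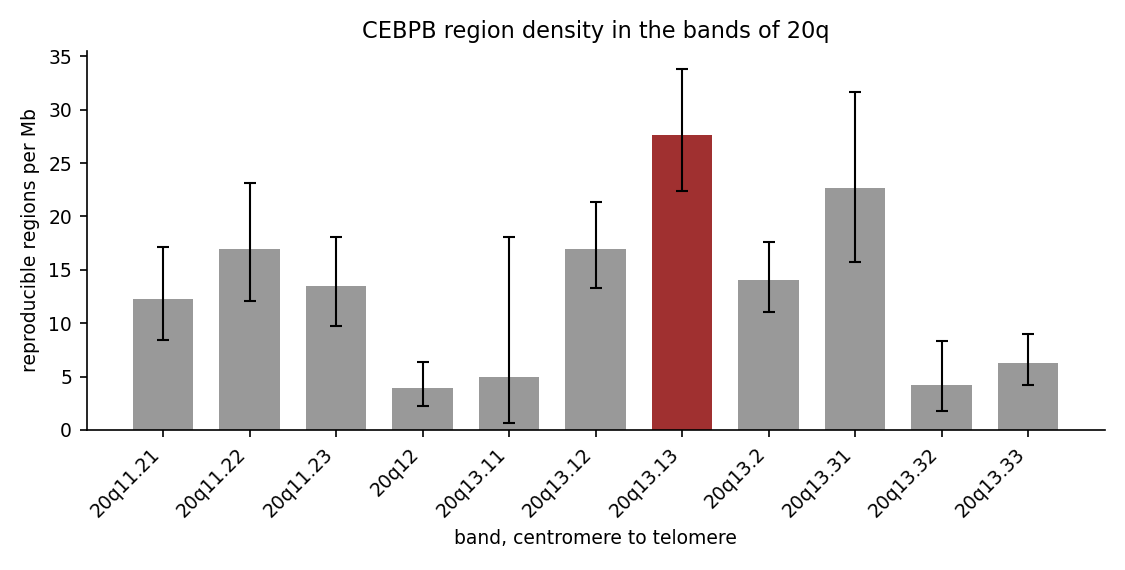
Reproducible CEBPB regions per Mb (vertical axis) in each band of 20q outside the centromere, from centromere to telomere; whiskers are 95% exact Poisson intervals and the coloured bar is 20q13.13. The band stands at 27.6 per Mb, above the 17 and 14 of its neighbours, and its whiskers overlap those of 20q13.31.

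The input background, which sets how many fragments a call needs, was close to that of the rest of the arm. Its mean over summits was 3.55 expected fragments in the band and 3.51 in the rest of 20q in replicate 1, and 3.88 and 3.67 in replicate 2, a ratio of 1.03 averaged over replicates. Both stood above the 2.72 and 2.81 of all chromosomes together. Few summits of the band had the lowest background that the caller assigns, 3 of 266 in replicate 1 (1.13%) and 6 of 294 in replicate 2 (2.04%). The shares were similarly low in the rest of 20q, 1.61% and 3.03%, against 11.1% and 17% over all chromosomes. Along the arm, 20q13.31 had the highest background, with means of 4.35 and 4.69, and the second highest density. The next highest background was in 20q13.33, with means of 4.20 and 4.52 and 6.27 regions per Mb, whereas 20q13.12 had 3.11 and 2.99 with 17. The part of the background in the density was not tested.

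Ratios of density between the band and the rest of 20q were also taken for subsets of the peaks. The reproducible subsets are nested in the regions for whose density the band was chosen. The other peaks come from the same libraries and the same chosen band. The ratios of all subsets are therefore a description. With at least 100 fragments in both replicates there were 32 regions in the band and 115 in the rest of 20q, a ratio of densities of 2.47 (95% exact interval 1.62 to 3.69). For all reproducible regions the ratio was 2.39 (1.88 to 3.01), and for those with an IDR of at most 0.01 it was also 2.39 (1.75 to 3.23). With at least 200 fragments in both replicates, 9 regions in the band stood against 25 in the rest of the arm, a ratio of 3.20 with a wide interval of 1.31 to 7.09. Peaks found in both lists but not in the IDR table had a lower ratio of 1.67 (1.34 to 2.07), with 101 of them in the band. Peaks of replicate 2 without a partner in replicate 1 had the lowest, 1.36 (1.05 to 1.74), whereas those of replicate 1 without a partner had 2.12 (1.51 to 2.93). These intervals overlap in part, and no difference between the ratios was tested.

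**Figure D2:**
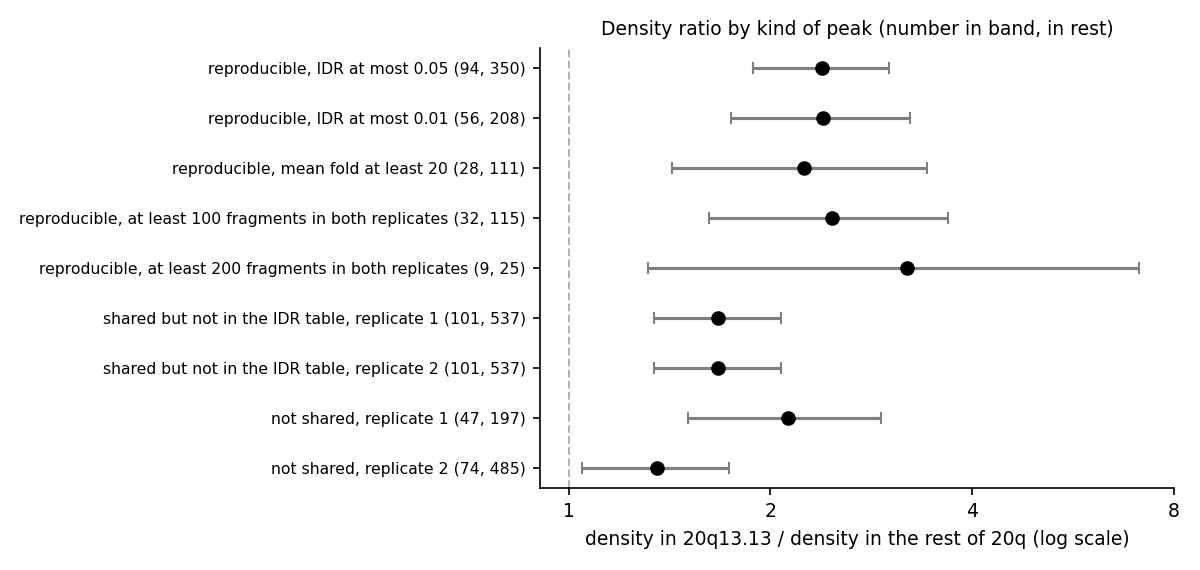
Density of peaks in 20q13.13 divided by that in the rest of 20q (horizontal axis, log scale), for kinds of peak named at the left with their numbers in the band and in the rest; points are ratios and whiskers 95% exact intervals. The ratios run from 1.36 for unshared peaks of replicate 2 to 3.20 for regions with at least 200 fragments in both replicates. The band was chosen as a dense one, so ratios above 1 are a description for every kind of peak.

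Inside the band the regions were unevenly spread. The stretch from 48.1 to 49.1 Mb held 51 of the 94 regions (54.3%), which is 51 per Mb (38.0 to 67.1). The 1.7 Mb before it held 28 regions, or 16.5 per Mb (10.9 to 23.8), and the 0.7 Mb after it held 15, or 21.4 per Mb (12.0 to 35.3). Without that stretch the band had 17.9 regions per Mb (13 to 24.1). The 17 of 20q13.12 includes its own fullest 1 Mb, so it is not a like value. Among all 30146 windows of 1 Mb, taken every 100 kb along chromosomes 1 to 22 and X, only 2 held 51 or more regions, where the median window held 7. These 2 are the stretch and a window that overlaps it, and the next densest place, in 8q24.13, held 41. In the other 4 of the 5 densest bands, the fullest 1 Mb held between 43.0% of the regions (9q31.3) and 33 of 66 (11q13.1). The bands differ in length: an even spread would put 27.8% in 1 Mb of 9q31.3, 40% in 11q13.1 and 29.4% in 20q13.13. Without their fullest 1 Mb, the other 4 bands held from 18.8 (9q31.3) to 22 (11q13.1) regions per Mb. Both the stretch and its limits were chosen by its count.

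In windows of 100 kb the number of regions ran from 0 to 10. The fullest window, 48600001 to 48700000, held 10 regions, followed by 2 adjoining windows from 48200001 to 48400000 with 7 each. The 11 windows with at least 4 regions held 62 of the 94. At the other end, 4 of 34 windows held none, and the longest gap between regions, 182 kb from 46419310 to 46601099, contained 2 peaks of replicate 1 and 5 of replicate 2. The median gap between neighbouring regions was 19.9 kb in the band and 36.0 kb in the rest of 20q.

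The background moved with the number of regions along the band. Its mean over summits was 3.93 and 4.44 expected fragments in replicates 1 and 2 in the dense stretch, and 2.91 and 2.99 in the 1.7 Mb before it. Over the 33 windows with a summit in each replicate, the number of regions and the mean background had a Spearman rho of 0.425 in replicate 1 and 0.546 in replicate 2. These windows lie side by side and share their libraries, so no p is given. Regions of the dense stretch were also taller, with medians of 80 and 112 fragments against 56 and 79 in the rest of the band. Their median mean fold was 15.8 against 13.7. The part of the background in these differences was not tested.

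**Figure D3:**
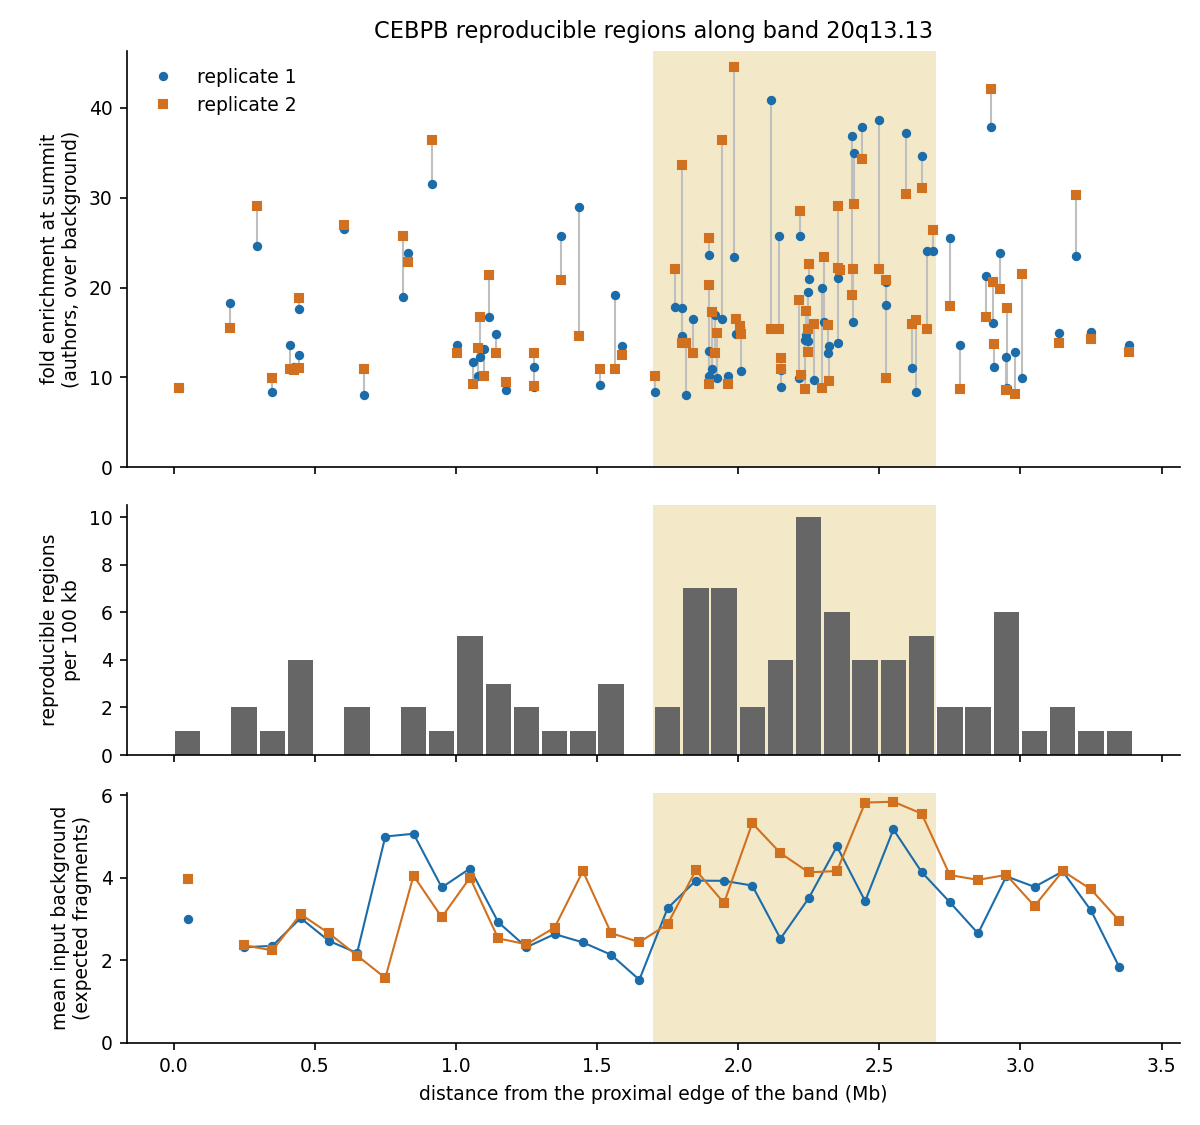
The 94 reproducible regions along 20q13.13, by distance from the proximal limit in Mb: the authors' fold in replicates 1 and 2 with a line joining each pair (top), regions per 100 kb (middle) and the mean input background at summits per 100 kb in expected fragments (bottom, same colours). The shaded 1 Mb holds 51 regions, and the means of the background there are 3.93 and 4.44 in the replicates.

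The folds and fragments of the band's regions had medians close to those of the rest of the arm, and the difference was not tested. Their median fold was 14.9 in replicate 1 (quartiles 11.1 and 21.8) and 15.7 in replicate 2 (11.3 and 22), against 15.5 and 15.5 in the rest of 20q. The median region rested on 70 fragments in replicate 1 and 99 in replicate 2, where the rest of the arm had 72.5 and 93.5. By mean fold, 21 of the 94 regions (22.3%) belonged to the top quartile of all regions, as did 77 of 350 (22%) in the rest of 20q. By fragments of replicate 1 the shares were 38.3% and 37.4%. The median region was 452 bp wide in the band and 437 bp in the rest of the arm. Over all chromosomes the median region had 58 fragments in replicate 1 and 77 in replicate 2, fewer than in the band. Among the 674 bands the median of the mean fold, 15.1, had rank 428, while the density had rank 1. By median fragments the band had ranks 104 and 65 in replicates 1 and 2, and by mean background ranks 52 and 41.

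The strongest region by mean fold lay at 49296938 to 49297658, outside the dense stretch. Its fold was 37.8 in replicate 1 and 42.1 in replicate 2 (39.97 ± 3.05, SD, n = 2), on 203 and 224 fragments. Among all 25602 regions it had rank 726 by mean fold. It headed a group of 3 regions within 9.95 kb, whose other members had mean folds of 18.4 and 12.4.

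Next came the region at 48837963 to 48838472, with folds of 37.8 and 34.3 (36.1 ± 2.52) on 244 and 256 fragments. The region at 47314160 to 47314875 was the only other one of the 10 strongest outside the dense stretch, with folds of 31.5 and 36.4 on 203 and 229 fragments. The region at 48995643 to 48996296 had folds of 37.2 and 30.4 on 242 and 265 fragments. In none of these regions did the fold differ by more than 1.5-fold between the replicates.

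A trio of regions lay within 5.16 kb at 48803975 to 48809134 and held 2 of the 10 strongest. The region at 48808784 to 48809134 had folds of 35.0 and 29.3 on 140 and 158 fragments, the lowest fragment counts among the 10. The region at 48803975 to 48804456 had folds of 36.8 and 19.1 on 209 and 214 fragments. Between these, the region at 48805638 to 48805984 had folds of 16.2 and 22 on 94 and 125 fragments. All members of the trio therefore lay above the band's median in fragments in both replicates.

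The other strong regions showed how fold and fragments can part. At 48384664 to 48385481 the fold was 23.4 in replicate 1 and 44.5 in replicate 2 (33.9 ± 15), while the fragments were 251 and 277. The background there was 9 expected fragments in replicate 1 and 4 in replicate 2. At 48517296 to 48517787 the fold was 40.9 and 15.4 (28.1 ± 18.0), the fragments 151 and 172, and the background 2.45 and 8. At 48900282 to 48901154 the fold was 38.6 and 22, with 289 and 302 fragments, the most of any region in the band. The region at 49051092 to 49051714, with folds of 34.7 and 31.0 on 186 and 195 fragments, had a background of 4 and 4.06. Across the 10 strongest regions the fragments of replicate 2 were 1.02 to 1.14 times those of replicate 1, while the background ratio ran from 0.444 to 3.27. At 3 of the 10 the SD between replicates exceeded the 12.0 that separates the highest and lowest of the 10 mean folds, so their order is not resolved.

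Over all 94 regions, the fold of the replicates differed by more than 1.5-fold at 25 (26.6%), against 25.1% in the rest of 20q. At 15 of the 25 only the background differed by more than 1.5-fold, and at 6 the fragments did so after allowing for the ratio usual at that height. Spearman's rho between the replicates was 0.593 for the fold and 0.928 for the fragments, across 94 regions that share their libraries and were selected for agreement of rank. In the rest of 20q the values were 0.622 and 0.925. If 1 read is kept per position and strand, and the shortest peak is as long as a fragment, no summit can hold more than 306 and 312 fragments. The tallest region of the band reached 94.4% and 96.8% of these numbers. Of the 94, 14 stood above 50% of this ceiling in replicate 1 (14.9%), against 17.4% in the rest of 20q and 7.57% of all regions. In replicate 2 it was 20 (21.3%), against 22.6% and 12.0%. The part of the ceiling in the ratios near 1 was not tested.

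**Figure D4:**
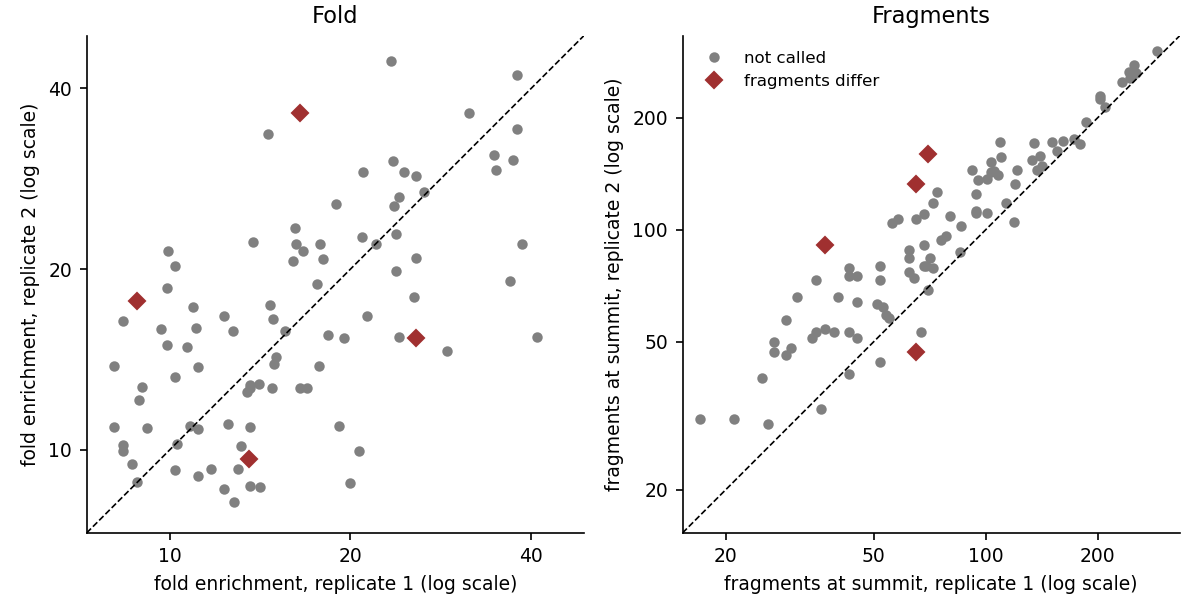
The 94 reproducible regions of 20q13.13 in replicate 1 (horizontal) and replicate 2 (vertical), by the authors' fold (left) and by fragments (right), on log axes; the dashed line marks equal values and diamonds mark the 4 regions whose fragments differed by the binomial test. The points scatter widely by fold (rho 0.593) and lie close to a curve by fragments (rho 0.928).

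To ask where the libraries differed by more than counting noise, the fragments of each of the 25602 regions were compared with the share usual for regions of like height (two-sided exact binomial tests, adjusted by the Benjamini-Hochberg method over all regions). In the band 4 of 94 regions passed at an adjusted p of 0.05 (4.26%, 95% exact binomial interval 1.17 to 10.5%), against 2.92% of all regions, so the share of the band was near the background. In 3 of them replicate 2 was higher, as in 1.24% of all regions, and in 1 replicate 1 was higher, as in 1.68%. At an unadjusted p of 0.05, 12 of the 94 passed (12.8%), against 12.9% in the rest of 20q and 16.4% of all regions. The lowest adjusted p was at 48343933 to 48344452, with 70 fragments in replicate 1 and 160 in replicate 2, where a ratio of 1.22 was usual (exact binomial test, adjusted p = 0.0021). Replicate 2 was also higher at 48545269 to 48545784, with 65 and 133 fragments (exact binomial test, adjusted p = 0.046), and at 49351470 to 49351846, with 37 and 91 (exact binomial test, adjusted p = 0.046). Replicate 1 was higher at 48720218 to 48720702, with 65 and 47 fragments (exact binomial test, adjusted p = 0.035). At 48545269 to 48545784 the fold went the other way, 25.8 in replicate 1 and 15.3 in replicate 2, over backgrounds of 1.38 and 6. With a single share for regions of all heights 2 of the band's regions passed, as did 3.61% of all regions. Among the 56 of the band with an IDR up to 0.01, 1 passed, as did 356 of all 15504 such regions. The test compares these libraries and not conditions, and leaves out the ordinary variation between experiments.

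Regions of the band often had close neighbours. They were grouped by a limit on the gap between edges that falls between 11.996 and 12.6 kb, which are the band's nearest gaps below and above it. By that limit 47 of the 94 had a neighbour (95% exact interval 39.5 to 60.5%), against 41.4% in the rest of 20q and 40.6% over all chromosomes. The intervals of band and arm (36.2 to 46.8%) overlapped, and the part of the density in the shares was not tested. Regions with a neighbour had a median mean fold of 15.2 and those without one 15. The 47 formed 17 groups: 9 pairs, 6 trios, 1 group of 5 and 1 of 6.

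The group of 6 spanned 30.6 kb at 48295518 to 48326076, with mean folds from 11.1 to 24.6 (mean 15.4 ± 4.75, SD over regions). Its fragments ran from 35 to 101 in replicate 1 and from 73 to 137 in replicate 2. The strongest of the 6, at 48297060 to 48297637, had folds of 23.6 and 25.5 on 101 and 137 fragments. The weakest by mean fold, at 48297971 to 48298689, followed it directly, with folds of 13 and 9.28 on 69 and 80 fragments and more than 1 summit in each replicate.

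The group of 5 was tighter, 13.9 kb at 48636958 to 48650857, with mean folds from 11.4 to 21.8. Its distal end, at 48650289 to 48650857, was the strongest, with folds of 20.9 and 22.6 on 108 and 140 fragments. The region at 48646248 to 48646763 had folds of 19.5 and 15.3 on 120 and 133 fragments, the most fragments of the group in replicate 1. With the trio at 48616748 to 48621238, the group accounts for 8 of the 10 regions of the fullest 100 kb window. The centre of that trio, at 48619637 to 48620045, had folds of 25.7 and 28.6, while its flanks had mean folds of 14.3 and 10.3.

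Most groups joined regions of unequal height, though groups outside the band and ungrouped regions were not measured in this way. By fragments, the tallest member was at most 1.5 times the lowest in both replicates in 4 of the 17 groups, and the median ratio was 2.13 in replicate 1 and 1.88 in replicate 2. The highest ratio was 4.07 in replicate 1, in the trio at 48616748 to 48621238, with 27 to 110 fragments. The trio at 48754081 to 48761307, 7.23 kb long, had mean folds from 18 to 25.03 and fragments from 94 to 135 in replicate 1 and 112 to 171 in replicate 2. The pair at 48922359 to 48925723 was taller and more even, with 161 and 173 fragments in replicate 1 and 173 and 175 in replicate 2. Its distal member, at 48925165 to 48925723, had folds of 20.6 and 9.95 over backgrounds of 6.27 and 13. Of the pairs, the one at 47675470 to 47676495 was the shortest, with a span of 1.03 kb, and it had 30 and 36 fragments in replicate 1. Of these groups, the last lay outside the dense stretch.

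By fragments, 8 of the 10 strongest regions by mean fold were also among the 10 tallest in both replicates. Outside the rule for named sites, and chosen after their values were seen, are the 2 other tall ones. The region at 49596556 to 49597191 had 253 and 264 fragments and folds of 23.5 and 30.3 over backgrounds of 9 and 6. The region at 49067392 to 49068408 had 233 and 249 fragments and folds of 24.1 and 15.4 over backgrounds of 8 and 12. The region with the fewest fragments in replicate 1, at 46748939 to 46749207, had 17 and 31. Its fold of 8.37 and 9.95 stood over backgrounds of 1.00, the lowest that the caller assigns in replicate 1, and 1.59.

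The replicates placed their summits close together. They lay a median of 7 bp apart in the band, and at all 94 regions within 36 bp. In the rest of the arm 347 of 350 lay within 50 bp. More than 1 summit in both replicates was called at 8 regions of the band (8.51%), against 9.14% in the rest of 20q.

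The larger part of each replicate's peaks in the band had a partner in the other. Of the 242 peaks that replicate 1 has in the band, 195 were also called in replicate 2 (80.6%, with a 95% exact interval of 75 to 85.4%), and in the rest of 20q 81.9% were. The 269 peaks of replicate 2 had 195 with a partner (72.5%, 66.7 to 77.7%), while the rest of the arm had 64.7% (62.1 to 67.2%). The difference was not tested. Without the peaks in the IDR table, 101 of 148 were shared in replicate 1 (68.2%, 60.1 to 75.6%; rest of 20q 73.2%) and 101 of 175 in replicate 2 (57.7%, 50.03 to 65.1%; rest of 20q 52.5%). Peaks without a partner were low: the median was 18 fragments for those of replicate 1, whose tallest had 34. For those of replicate 2 it was 22.5, and the tallest had 50. The one of 50 fragments, at 47521737 to 47521991 in replicate 2, had a fold of 16.0 over a background of 1.56. In replicate 1 the strongest unshared peak by fold, at 48429005 to 48429297, had 7.66 on 32 fragments over a background of 3.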

How the data were processed

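CEBPB ChIP-seq was analysed in 2 ChIP samples of NCM460 cells, each called against input. Per the submitters' processing notes, FastQC 0.11.7, Bowtie2 2.3.4, SAMtools 1.9, MACS2 2.1.2, bedtools 2.25.0 and the hg19 build were used. Their settings are not given in the sources used here. Per the file headers, the peak lists are MACS2 narrowPeak tables. The authors' deposited lists give each summit a score, a fold over background (a ratio), and, as −log10, its p-value and its q-value. The authors' deposited IDR table gives a −log10 IDR per pair of peaks. Its interval columns served as keys, and 2 columns of values per sample were not used.

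Fragments and background were solved from fold and −log10 p, with MACS2's pseudocount of 1 and scales of 0.927 and 0.800 per read in replicates 1 and 2. The pileup was whole at 99.995% and 100% of summits within 0.005 on the −log10 p. The share expected of each replicate in the binomial test was the running median over 1001 regions of like height. The recovery and the binomial test were tested on simulated data. Table entries that repeat an interval count as 1 region, which takes the values of its tallest summit in each replicate. Results cover chromosomes 1 to 22 and X, positions count from 1, and overlaps need at least 1 bp. Bands came from circlize 0.4.16. The computing used SciPy 1.17.1 and pandas 2.3.3 with NumPy 2.4.6 on Python 3.11.15, and matplotlib 3.10.9.

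The members and lists were chosen with earlier results of these data known. Sites named are the 10 strongest regions by mean fold, those that differed between replicates, the largest groups, the fullest windows, the summits at the limits and the strongest unshared peaks. The rule also allowed for regions nearest to gene starts and sequences of peaks, which need an hg19 annotation and sequence and were not run. The stretch of 1 Mb, the trios, the gaps, the density ratios and the promoter search were added after the values were seen.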

Additional observations from a re-analysis of the deposited data

How the results depend on the processing

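The density of 27.6 regions per Mb was 16.5 when only an IDR up to 0.01 was kept and 60.0 for summit pairs within 100 bp, each with a q-value up to 0.01, where the rest of 20q held 6.88 and 30.5. These definitions admitted 56 and 204 sites in the band, and 208 and 923 in the rest of 20q. Without its densest 1 Mb, an alternative chosen after seeing the data, the band had 17.9. Moving both limits by 200 kb gave 30.3 and 26.8. Leaving out a replicate gave 25.6 (87 regions) and 25.9 (88 regions), where the rest of 20q held 11.4. These are not all peaks of 1 replicate, which gave 71.2 and 79.1 per Mb. The IDR needs both replicates, so these values say nothing of reproducibility. Among peaks with a −log10 q of at least 5, which leaves out the weakest, 85.4% of replicate 1 and 78.4% of replicate 2 peaks were shared. An overlap of 50% of the shorter peak gave the same shares as 1 bp. The median mean fold of 15.1 became 20.2 at an IDR of at most 0.01, which keeps fewer and stronger regions, and 14.9 to 15.7 without a replicate. The share with a neighbour, 47 of 94, became 74.5% within 25 kb and 33.9% among the 56 regions with an IDR up to 0.01. The background ratio of 1.03 was 1.01 to 1.06 without a replicate and 0.976 at reproducible regions; the cause was not tested. The 4 regions that differed between the replicates became 2 with a single share for all heights, when 3.61% of all regions passed, and 1 of 56 at an IDR of at most 0.01, when 356 of 15504 passed over all chromosomes. No paired analysis was possible because the input samples have no peak list of their own here, so that the replicate numbers link no pair of groups.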

Other observations

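Of the peaks shared by both lists, 101 in the band were not in the IDR table. Their median was 22 fragments in replicate 1 and 34 in replicate 2. The tallest of them in replicate 1, at 48841089 to 48841596, had 96 fragments and a fold of 17.5 over a background of 4.13. Its partner in replicate 2 had 71 fragments and a fold of 4.82 over a background of 11. The peak at 49016693 to 49017029 had 74 fragments and a fold of 18.9 in replicate 1, and its partner 65 fragments and a fold of 7.57. At 47139760 to 47140034 in replicate 2 the fold was 17 on 49 fragments, at the lowest background the caller assigns, and the partner in replicate 1 had a fold of 3.82 on 36 fragments over a background of 8. Whether the background set their absence from the IDR table was not tested.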
